A study of Homo sapiens with 3 samples.

Results

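In wild-type KBM7 cells, 6167 H3K27ac peaks lay in super-enhancers that overlap their own target gene and carried no H3K4me3 peak. KBM7 cells are human leukaemia cells with a near-haploid genome, established from chronic myeloid leukaemia, and they carry the BCR-ABL fusion. Chromatin immunoprecipitation sequencing was done on 1 library per mark, 1 for H3K27ac and 1 for H3K4me3, with 1 input library, 3 in all. All came from wild-type cells, and no treatment or second genotype entered the values below. The authors gave a target gene for 513 super-enhancers and none for another 19. In 340 of the 513 the super-enhancer shared at least 1 bp with the RefSeq record of that target, and 339 of these held at least 1 H3K27ac peak with no overlap to any of 36951 H3K4me3 peaks. These 6167 peaks, called acetylated elements here, are part of 96659 H3K27ac peaks on chromosomes 1 to 22 and X, and they belong to 321 target genes. The region of NCK2, an SH2/SH3 adaptor, was the exception, since each of its 3 H3K27ac peaks met an H3K4me3 peak.

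H3K27ac is the acetylation of lysine 27 on histone H3, written by the acetyltransferases EP300 and CREBBP, and it marks active promoters and active enhancers. H3K4me3 is written mainly at promoters, most of all at those rich in CpG dinucleotides, so an acetylated site without it is usually read as an enhancer. Super-enhancers are long runs of neighbouring acetylated peaks, dense in transcription factors and Mediator, and in blood cells they often sit at the genes of lineage factors. Many of them lie wholly or partly inside the gene they are assigned to, where introns carry enhancers and further promoters.

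The elements were chosen by measured values, namely the peak calls of both marks and the super-enhancers called on H3K27ac, together with the authors' targets, so neither the acetylation of the elements nor their lack of H3K4me3 is a finding. An absent H3K4me3 peak means only that none passed the authors' threshold. With 1 library per mark there is no spread between replicates and no test was made. Intervals in brackets are 95% Wilson intervals, which cover counting error only, and peaks of 1 library are not replicates. For the total reads of a library no value is given in the sources used here. Depth behind an element is therefore stated as the fragments piled up at its summit, recovered from the authors' fold and p-value.

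A small number of elements, 57 of 6167 (0.92%), overlapped the window of an annotated transcription start. Outside super-enhancers the share was 1.16% of H3K27ac-only peaks. Sequences at some of these starts are shown first, and they describe those starts rather than the elements at large. RefSeq (GRCh38.p14) start windows run from 250 bases before a start to 50 after it. Of these, 51 windows of 45 genes overlapped an element and no H3K4me3 peak. Printed below are the 250 bases before the start, 5′ to 3′ along the gene, with each CG dinucleotide in capitals. The first 4 genes are targets with a start in an element and with no H3K4me3 at any listed start. NT5DC4, a gene of the cytosolic 5′-nucleotidase family, is read on the plus strand and the stretch is chr2:112720770-112721019. SLC23A1, the sodium-dependent vitamin C transporter, is read on the minus strand at chr5:139383298-139383547. FGF6, a fibroblast growth factor, is read on the minus strand at chr12:4445816-4446065. VSIG4, a complement receptor of tissue macrophages, is read on the minus strand at chrX:66040081-66040330.
NT5DC4: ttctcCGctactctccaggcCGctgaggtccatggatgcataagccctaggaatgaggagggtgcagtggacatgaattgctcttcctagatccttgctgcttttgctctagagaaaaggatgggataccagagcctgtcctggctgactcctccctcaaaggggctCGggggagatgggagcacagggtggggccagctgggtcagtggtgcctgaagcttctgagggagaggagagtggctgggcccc
SLC23A1: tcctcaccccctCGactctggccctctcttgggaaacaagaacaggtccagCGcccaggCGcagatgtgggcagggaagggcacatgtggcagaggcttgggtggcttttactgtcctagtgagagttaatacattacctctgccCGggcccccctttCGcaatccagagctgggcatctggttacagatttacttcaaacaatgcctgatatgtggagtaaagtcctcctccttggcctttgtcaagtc
FGF6: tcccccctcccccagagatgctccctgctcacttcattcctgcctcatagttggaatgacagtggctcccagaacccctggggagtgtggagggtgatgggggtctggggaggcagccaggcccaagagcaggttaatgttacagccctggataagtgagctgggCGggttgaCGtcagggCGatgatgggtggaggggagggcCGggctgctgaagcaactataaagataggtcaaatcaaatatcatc
VSIG4: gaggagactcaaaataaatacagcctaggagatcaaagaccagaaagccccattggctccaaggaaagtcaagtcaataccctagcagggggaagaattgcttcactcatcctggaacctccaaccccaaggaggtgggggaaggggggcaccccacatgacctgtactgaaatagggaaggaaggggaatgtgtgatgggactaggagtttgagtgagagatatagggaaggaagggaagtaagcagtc

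These stretches held 3 CG dinucleotides at NT5DC4, 5 at SLC23A1, 4 at FGF6 and 0 at VSIG4. The element over the NT5DC4 start had a fold of 16.3 from 61 fragments and was 6640 bp wide. At SLC23A1 the fold was 9.21 from 34 fragments, at FGF6 6.32 from 29 fragments and at VSIG4 5.78 from 24 fragments. The nearest H3K4me3 peak lay 172 bp from the FGF6 element and 6629 bp from the VSIG4 element, so the distance to the other mark varied widely among these starts.

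A second pair of genes shows starts of both kinds inside 1 gene. TPM4, a tropomyosin that binds actin filaments, has an element start on the plus strand at chr19:16067288-16067537 and a start with both marks at chr19:16076766-16077015. PDE4B, a phosphodiesterase that breaks down cyclic AMP, has an element start on the plus strand at chr1:66354285-66354534 and a start with both marks at chr1:66331858-66332107.
TPM4 element start: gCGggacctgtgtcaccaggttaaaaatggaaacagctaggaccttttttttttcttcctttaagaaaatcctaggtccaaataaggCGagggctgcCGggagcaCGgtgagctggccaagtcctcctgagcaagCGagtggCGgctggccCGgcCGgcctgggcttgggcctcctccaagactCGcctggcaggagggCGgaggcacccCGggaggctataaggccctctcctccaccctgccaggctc
TPM4 start with both marks: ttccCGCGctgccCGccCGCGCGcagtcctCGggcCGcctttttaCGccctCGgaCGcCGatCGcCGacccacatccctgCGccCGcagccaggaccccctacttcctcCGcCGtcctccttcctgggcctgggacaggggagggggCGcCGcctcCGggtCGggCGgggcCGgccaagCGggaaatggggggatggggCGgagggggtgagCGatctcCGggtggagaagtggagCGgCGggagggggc
PDE4B element start: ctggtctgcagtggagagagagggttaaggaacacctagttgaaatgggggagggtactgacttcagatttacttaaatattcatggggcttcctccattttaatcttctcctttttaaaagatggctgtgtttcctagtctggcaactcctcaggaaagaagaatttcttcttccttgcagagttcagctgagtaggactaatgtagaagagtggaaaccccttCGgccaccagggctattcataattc
PDE4B start with both marks: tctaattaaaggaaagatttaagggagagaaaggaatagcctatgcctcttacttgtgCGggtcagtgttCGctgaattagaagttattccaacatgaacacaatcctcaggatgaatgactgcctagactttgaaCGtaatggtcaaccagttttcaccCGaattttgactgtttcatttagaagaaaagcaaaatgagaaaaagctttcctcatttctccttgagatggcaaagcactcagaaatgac

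At TPM4 the 250 bases held 11 CG dinucleotides at the element start and 30 at the start with both marks. H3K27ac fold there was 11.1 against 49.7, and the H3K4me3 fold of the second start was 90.0. At PDE4B the counts were 1 and 4, with H3K27ac folds of 4.16 and 23.9, so a start with both marks was not CpG-rich in every case.

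Over the whole 300-base windows, the 51 element starts had a median of 6 CG dinucleotides, with an interquartile range of 3 to 10.5. Starts in other H3K27ac peaks without H3K4me3 had a median of 5 (n = 801), starts with both marks 27 (n = 15380) and starts with neither mark 4 (n = 16778). Windows with 5 or fewer CG dinucleotides made up 43.1% (30.5 to 56.7) of the element starts, 59.4% (56.0 to 62.8) of the other H3K27ac-only starts and 5.18% (4.84 to 5.54) of the starts with both marks. Among starts with neither mark the share was 61.6% (60.9 to 62.4). The low-CpG share of the element starts thus lay far above that of starts with both marks, overlapped that of the other H3K27ac-only starts in its interval, and lay below that of starts with neither mark.

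**Figure D1:**
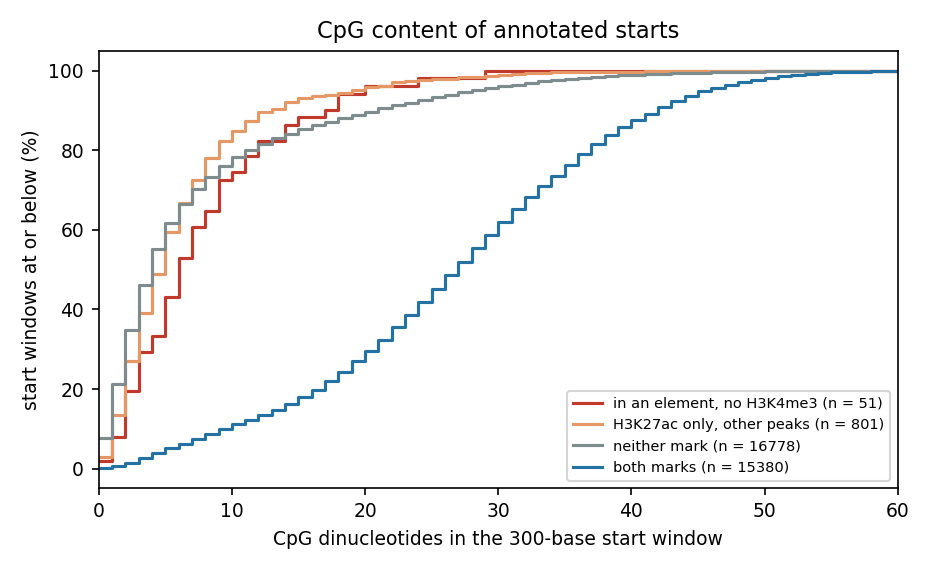
Cumulative share of annotated starts (vertical axis, %) at or below a number of CG dinucleotides in the 300-base start window (horizontal axis), by the marks on the window. The 51 starts in elements have a median of 6, against 4 for starts with neither mark, while the 15380 starts with both marks have a median of 27.

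Of the 45 genes of the 51 windows, 13 were the target of their own super-enhancer, with 16 windows. Another 21 genes were long non-coding RNAs and 11 were other protein-coding genes. Of the 51 windows, 26 lay wholly inside an element. Short motifs were searched on both strands of the windows. A pair of E-box words of basic helix-loop-helix factors were searched, CAGCTG as the first and CAGATG as the second, and the E-box of MYC and its relatives was searched as CACGTG. Factors of the ETS family were searched as CCGGAA, PU.1 by the longer word AGGAAGT, the RUNX family by TGTGGTT and the erythroid zinc-finger family of GATA1 by AGATAA. MYB was searched as CAACTG, AP-1 by its palindrome TGANTCA, the STAT family by TTCNNNGAA and the C/EBP family by TTGCNNCA. No word holds another of them. CAGCTG was present in 17 of 51 element starts (33.3%, 22 to 47.0) and in 18.0% of all 34961 windows. CAGATG was present in 15 of 51 (29.4%, 18.7 to 43.0) and in 14.7% of all. Both E-box words were thus found more often at element starts than over all windows, although for each the interval overlaps the share at the other H3K27ac-only starts, 23.7% and 23%. Near-identical windows of the same gene, as at NIBAN3 (with CAGATG) and CEACAM16-AS1 (with both words), were counted separately. Intervals over the 51 windows are therefore too narrow.

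CCGGAA was present in 2 of 51 element starts (3.92%, 1.08 to 13.2), against 17.3% of all windows and 29.8% of those with both marks. CACGTG was present in 0 of 51, where the interval reaches 7.01%, against 7.27% of all. Both words contain a CG dinucleotide, and the part of CpG content in these shares was not tested. AGATAA was found in 5 of 51 (9.80%) against 10.3% of all, AGGAAGT in 3 of 51 (5.88%) against 8.26%, and CAACTG in 9 of 51 (17.6%) against 11.4%. For these 3 words the share of all windows lay inside the interval of the element starts, as it did for the remaining 4 words, each found in 2 or 3 of the 51 windows. A match describes letters in a window and is not a bound site.

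Most elements were weak and narrow next to the H3K27ac peaks that carry H3K4me3. Their median H3K27ac fold was 4.29 (interquartile range 3.48 to 5.48, maximum 35.8), from a median of 20 fragments at the summit over an expected 3.63. All H3K27ac peaks with H3K4me3, in or outside super-enhancers, had a median fold of 11.5 from 61 fragments (n = 34834). Those in the overlapping super-enhancers alone had a median fold of 17.5 and a median width of 2780 bp (n = 1706). The median element was 394 bp wide, against 1125 bp for all peaks with H3K4me3 and 300 bp for the 51968 H3K27ac-only peaks outside super-enhancers. In all, the elements covered 3.74 Mb. Elements were therefore between those classes in width, and nearer to the H3K27ac-only peaks.

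A fold of at least 10 was reached by 250 elements, 4.05% (3.59 to 4.58). Over all H3K27ac peaks the share was 21.2%, and over all H3K27ac peaks without H3K4me3 it was 2.12%. Outside super-enhancers it was 1.68% (1.57 to 1.79) of 51968 peaks, with a median fold of 3.88. The 3433 H3K27ac-only peaks of the 173 super-enhancers that do not overlap their target had a median fold of 4.28, and 5.21% (4.52 to 6.01) of them reached 10. When only the top 50% of H3K4me3 peaks by fold counted as H3K4me3, 11.3% of the elements reached 10, and the other classes were not recomputed under that rule. With every H3K4me3 peak counted, strong elements were commoner in both kinds of super-enhancer than outside them. Since super-enhancers are ranked on H3K27ac itself, that difference was fixed in part by how the regions were called. Overlap with the target went with no higher share of strong elements, and the intervals of both kinds of super-enhancer overlap narrowly.

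**Figure D2:**
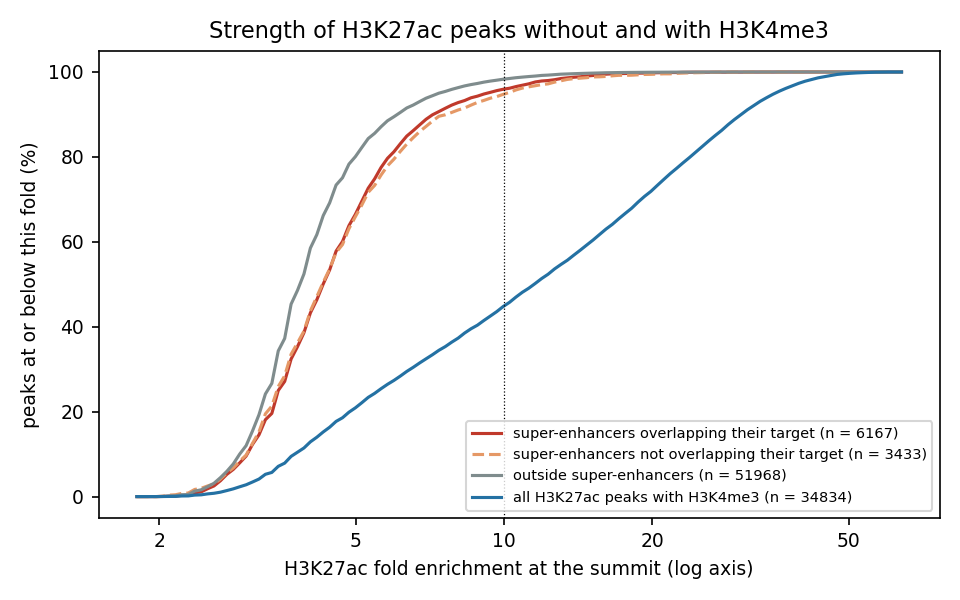
Cumulative share of H3K27ac peaks (vertical axis, %) at or below a fold enrichment (horizontal axis, log scale) for elements in super-enhancers overlapping their target and for comparison classes. The elements have a median fold of 4.29, close to the 4.28 of super-enhancers away from their target and below the 11.5 of all peaks with H3K4me3.

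A region that must overlap a gene record tends to take in that gene's start and ends, so the next values are in part set by the rule and are given as a description. H3K27ac-only peaks made up 6167 of 7873 peaks (78.3%, 77.4 to 79.2) in the overlapping super-enhancers, including that of NCK2, and 3433 of 4081 (84.1%, 83.0 to 85.2) in those away from their target. Super-enhancers over their target therefore had the larger share of peaks with H3K4me3. Elements were also nearer to H3K4me3, with a median gap of 3458 bp against 4775 bp, and 13.6% (12.7 to 14.4) against 9.29% (8.37 to 10.3) lay within 1 kb of it. Within 1 kb of an end of a protein-coding gene record lay 4.83% (4.32 to 5.40) of the elements, 2.13% (1.70 to 2.67) of the peaks in super-enhancers away from their target and 5.18% (4.99 to 5.37) of those outside super-enhancers. With at least 50% of the super-enhancer required to lie inside the gene, the first share was 2.58% (2.10 to 3.15), and its interval then overlapped that of the super-enhancers away from their target. The share inside a protein-coding record, 68.6% against 23% away from the target, follows in part from the rule itself.

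Most super-enhancers over their target held several elements, although 4 held only 1. Over 339 regions the median was 15 elements (interquartile range 9 to 24, from 1 to 90), or 3.64 per 10 kb (0.446 to 7.69). Elements filled a median of 20.9% of a region's length, and the H3K27ac peaks with H3K4me3 filled 37.9%, although the elements were the more numerous. Neighbouring element summits in a region lay a median of 1274 bp apart (interquartile range 704 to 2892, n = 5828). Every region with an element also held at least 1 H3K27ac peak with H3K4me3. So did every other super-enhancer, with or without a target, so this does not set the regions over their target apart.

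The strongest element of a region had a median fold of 9.21, and the strongest peak with H3K4me3 a median of 32.1. At least 1 element of fold 10 or more was present in 151 regions (44.5%), and 60 regions had at least 2. In 4 of 339 regions an element was the strongest peak. At PRAG1, a pseudokinase also known as Pragmin, the best element had a fold of 31.6 against 29.9 for the best peak with H3K4me3. At NR5A2, the nuclear receptor LRH-1, these values were 24.4 and 20.5. At GALNT2, an enzyme that starts O-linked glycosylation, they were 22.8 and 16.6, and at ABCA9, an ABC transporter, 22.8 and 21.9. In every other region the peak with H3K4me3 stood highest.

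The number of elements followed the length of the region, with a Spearman rho of 0.88 over 339 regions. The authors' ratio of H3K27ac to input signal over a region had a rho of 0.41 with the median element fold and of -0.31 with the elements per 10 kb. With the share of length in peaks that carry H3K4me3 it had a rho of 0.74. A region with a high ratio thus tended to be one filled by peaks with both marks rather than one crowded with elements. These correlations describe regions that share the same libraries. The ratio rests on the same H3K27ac library as the peaks, and the peaks with H3K4me3 are the stronger and wider ones. Elements and those peaks also divide the length of a region between them, so these relations are in part set in advance.

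**Figure D3:**
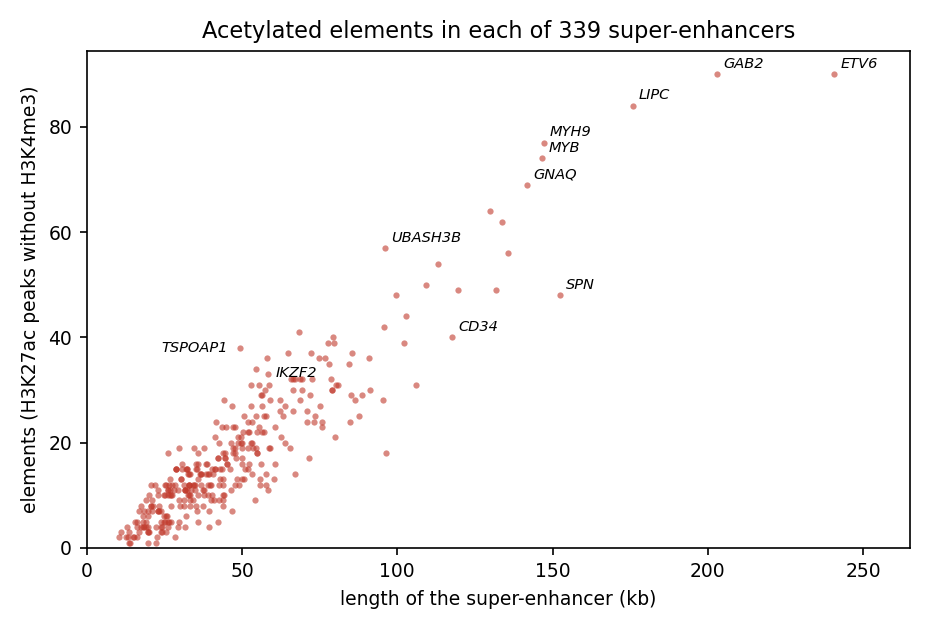
Number of elements (vertical axis) against length in kb (horizontal axis) for the 339 super-enhancers, 1 point each. ETV6 and GAB2 each hold 90 elements, and TSPOAP1 and IKZF2 hold 38 and 36 in much shorter regions.

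The 10 regions with most elements belonged to genes of blood-cell regulation and signalling, and to others. ETV6, an ETS-family repressor needed for adult haematopoietic stem cells, and GAB2, an adaptor that binds GRB2 downstream of BCR-ABL, each had 90. LIPC, hepatic lipase, had 84, MYH9, the heavy chain of non-muscle myosin IIA, had 77 and MYB, a transcription factor of progenitor cells, had 74. GNAQ, a G-protein alpha subunit, had 69 in the longer of its regions. LY86, the partner of the Toll-like receptor homologue CD180, had 64 and ZNF217, a zinc-finger repressor, had 62. UBASH3B, a phosphatase that dampens receptor signalling, had 57 and RHEX, a regulator of erythroid expansion, had 56. Median element fold in these regions ran from 3.91 at GAB2 to 4.78 at RHEX, close to the 4.29 of all elements. Each of the 10 regions also held an element of fold 10 or more, the best ranging from 13.0 at ZNF217 to 22.6 at ETV6.

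ETV6 had the longest of them, 241 kb on chromosome 12 (11656262 to 11896930), with 87 of 90 elements inside the gene record and 3 beyond its end. Its elements filled 36.5% of the region, and 7 of them reached a fold of 10. The strongest spanned 11859354 to 11864993, 5640 bp, with a fold of 22.6 from 124 fragments, 214 kb from the start of the record. The region also held 12 peaks with H3K4me3, the best of which had an H3K27ac fold of 38.4. GAB2 had as many elements over 203 kb, but only 1 of them reached 10, at 14.3.

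MYB showed another layout, with 13.4% of its 147 kb region (chromosome 6, 135199524 to 135346208) inside the record. Of its 74 elements, 17 lay in the gene and 57 beyond its 3′ end, and 16 of those fell in AHI1, a ciliary gene next to MYB. The strongest was 7399 bp wide, with a fold of 16.0 from 80 fragments, 49.9 kb from the MYB start and 33.1 kb from the nearest H3K4me3 peak. The element farthest from H3K4me3 of all 6167, with a gap of 41.6 kb, was also in this region. Just 4 peaks of the region carried H3K4me3, and elements filled 43.0% of it.

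IKZF2, encoding the Ikaros-family factor Helios, had 36 elements over 58.1 kb, 29 of them downstream of the gene and 7 inside. Its strongest element was the widest of all, 9272 bp at chromosome 2, 212973327 to 212982598, with a fold of 23.4 from 150 fragments. The only peak of that region with H3K4me3 had nearly the same fold, 23.8. CD34, a surface glycoprotein of stem and progenitor cells, had elements on all sides, 12 upstream, 11 inside and 17 downstream. The strongest of them, with a fold of 12.9, lay 7.27 kb upstream of the start.

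**Figure D4:**
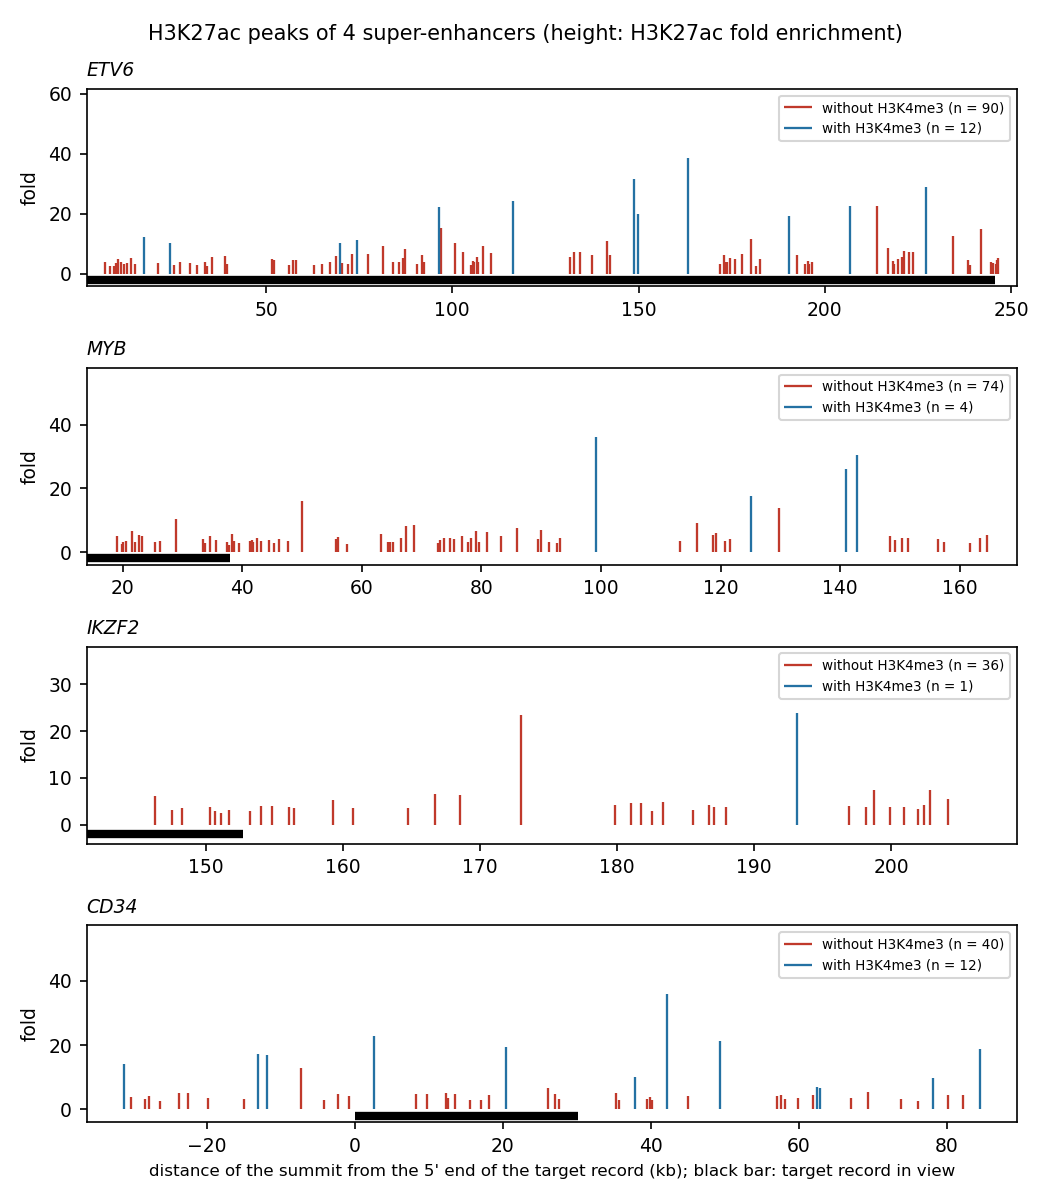
H3K27ac fold enrichment of each peak (vertical axis) against its distance from the 5′ end of the target record in kb (horizontal axis) in the super-enhancers of ETV6, MYB, IKZF2 and CD34, with elements in red and peaks with H3K4me3 in blue. Most elements of ETV6 stand over the gene (black bar), while 57 of 74 at MYB and 29 of 36 at IKZF2 stand beyond its 3′ end.

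By share of length, the 10 fullest regions were those of TSPOAP1, IKZF2, MYB, KLHL33, LIPC, BCL2, ANKS1A, UBASH3B and both regions of NBAS. TSPOAP1, which encodes a binding protein of the mitochondrial translocator protein, led with 50.3% of 49.4 kb in 38 elements, or 7.69 per 10 kb, the highest density of any region. None of its elements reached a fold of 10, the best having 9.39, and its single peak with H3K4me3 had 11.0. One element of this region lay in MPO, the myeloperoxidase gene. IKZF2 followed with 48.8%, KLHL33, a kelch-family gene, had 41.6% and BCL2, the inhibitor of apoptosis, 41.2%. ANKS1A, an adaptor of Eph receptors, had 40.9% and a best element of 9.21. In NBAS, which encodes a factor of Golgi-to-ER transport, both regions lay wholly inside the gene, at 39.6% and 39.8%. Fullness thus came with strong elements at IKZF2 and KLHL33, whose best had folds of 23.4 and 20.3, and without any at TSPOAP1.

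The 10 elements of highest fold lay at 10 different targets. The highest was inside ARHGAP22, a GTPase-activating protein for Rac, at chromosome 10, 48474918 to 48477897, with a fold of 35.8 from 143 fragments, 180 kb from the start of the gene. The median element of that region had 4.66. PRAG1 had the second, 8207 bp wide at chromosome 8, 8357819 to 8366025, with the most fragments of any element, 250. Its expected value was 6.95, on a chromosome where the background described further on was raised. XBP1, the transcription factor of the unfolded protein response, had the third, 28.9 from 109 fragments at chromosome 22, 28828277 to 28829531, 28.7 kb upstream of the gene. Its region had 4 elements in all, so a strong element did not need a crowded region.

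The next were those of NR5A2, IKZF2, GALNT2, ABCA9 and ETV6 given above, and those of HGF, the ligand of the MET receptor, with 21.4, and LAT2, an adaptor of mast cells and B cells, with 21.3. The HGF element lay 19.1 kb upstream of the gene and 22 bp from an H3K4me3 peak, and that of ABCA9 203 bp from one. The IKZF2 element was 13.8 kb and the PRAG1 element 9.72 kb from H3K4me3. Of these 10 elements, 4 were thus within 1 kb of H3K4me3, with XBP1 at 653 bp and LAT2 at 847 bp.

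Of all elements, 3713 (60.2%, 59.0 to 61.4) had their summit inside the record of their target and 2454 outside it. Strand was known for 254 targets with 4880 elements. Among these, 60.4% lay inside the target, 20.3% upstream and 19.3% downstream. Median folds were 4.28, 4.50 and 4.30, so strength differed little with the side of the gene. Of the 4880, 698 (14.3%, 13.4 to 15.3) lay within 10 kb of the target's start and 1111 (22.8%, 21.6 to 24.0) more than 100 kb from it. The most distant was in PDE4D, a cyclic AMP phosphodiesterase, 883 kb from the start of the record.

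**Figure D5:**
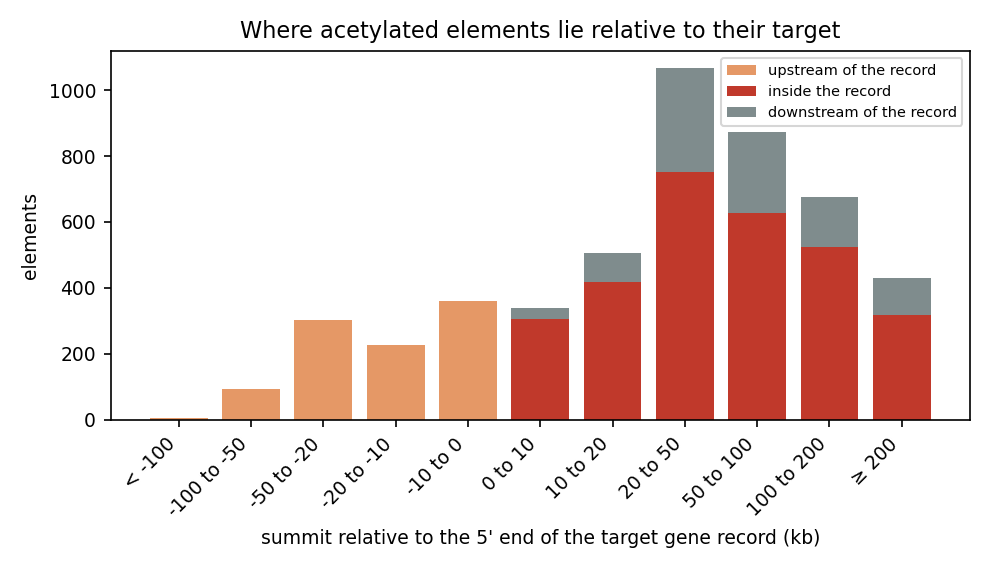
Where acetylated elements lie relative to their target, for the 4880 elements of targets with a known strand, as number of elements (bars, stacked by side of the gene) in bins of unequal width by distance from the 5′ end of the target record in kb. Upstream elements, 990 in number, have a median distance of 15.6 kb, and the 944 downstream elements one of 55.7 kb.

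With each record divided into 5 equal parts from its 5′ end, these held 18.5%, 24.1%, 24.4%, 16.5% and 16.5% of the 2946 elements inside targets with strand. Parts 2 and 3 thus held more than the others. Peaks that met H3K4me3, a mark written mainly at promoters, are not elements, so the share nearest the gene start depends on that rule. No background was computed for the parts, neither from super-enhancer length nor from all H3K27ac peaks. Whether elements favour any part of a gene was therefore not tested. Records that give only a start and an end do not separate exons from introns. In 102 of 339 regions the whole super-enhancer lay inside the target, in 109 every element did, and in 35 no element did although the region touched the gene.

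Of the 2454 elements outside their target, 537 (21.9%, 20.3 to 23.6) lay inside another protein-coding gene, 118 such genes in all, and 1917 in none. At VSIR, the immune checkpoint VISTA, 26 elements lay in CDH23, a cadherin of hair cells that overlaps it, with a median fold of 4.01. At ADGRG1, an adhesion receptor of stem cells, 22 lay in DRC7, a component of motile cilia, with a median of 4.44. Another 21 lay in PNKD at TMBIM1, 21 in ST3GAL4 at DCPS, 18 in CASP8 at CASP10 and 16 in RAB7B at RHEX. Elements in the other gene had a median fold of 4.36 against 4.34 for those in none, so the host gene went with no difference in strength.

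Several targets had more than 1 overlapping super-enhancer, 17 of 322. GSE1, a chromatin-associated protein, had 73 elements in 3 regions (39, 22 and 12) and GNAQ 75 in a pair of regions (69 and 6). ZMIZ1, a coactivator of the PIAS family, had 59, GALNT2 57 and ABCC1, a drug efflux pump, 54. RUNX1, the core-binding factor of definitive haematopoiesis, had 47 (32 and 15), ERG, an ETS factor, 30 (29 and 1), and BAALC 21 (12 and 9). At ERG and GNAQ nearly all elements thus lay in 1 of the regions, while at GALNT2 they were split 29 and 28.

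The elements closest to H3K4me3 were the most often strong. Elements within 200 bp of an H3K4me3 peak (n = 120) had a median fold of 4.82, and 13.3% (8.38 to 20.6) of them reached 10. From 200 bp to 1 kb (n = 716) the values were 4.54 and 5.87% (4.37 to 7.83). From 1 to 5 kb (n = 3117) they were 4.21 and 3.63% (3.02 to 4.34), from 5 to 20 kb (n = 2036) 4.25 and 3.44% (2.73 to 4.32), and beyond 20 kb (n = 178) 4.25 and 5.06% (2.68 to 9.33). Beyond 1 kb the intervals overlap throughout, and the wide interval beyond 20 kb also overlaps those of both nearer bins.

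Genes of the blood lineage were read from lists, by counts of targets and elements. Of all 19974 protein-coding genes, 319 (1.6%) were a target with elements. Of 43 haematopoietic transcription factors, 14 were targets of an overlapping super-enhancer, with 16 regions and 432 elements. Their elements had a median fold of 4.11, and 19 (4.40%) reached 10, close to the 4.29 and 4.05% of all elements. Regions of this list had a median of 16.5 elements, against 15 over all regions. The list as a whole was thus near all elements in strength and number, while single regions ranged from 1 element at the second ERG region to 90 at ETV6.

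LMO2, the bridging protein of the TAL1 complex, had 48 elements with a best fold of 13.2. RUNX1 reached 12.7 in an element 1.91 kb upstream of its start, and all 32 elements of its longer region lay inside the gene. ELF1 had 27 elements and a best of 11.4, MEF2C 17 and 6.42, and GFI1, a transcriptional repressor of blood progenitors, 16 and 7.87. All 16 elements at GFI1 were downstream of the gene. NFE2, an erythroid and megakaryocytic factor, had 13 with a best of 13.8, FLI1 12 with 6.74, IKZF1 10 with 6.52 and ELF4 7 with 7.93. TAL1, a master factor of blood specification, had 5 and the lowest best fold of the list, 4.16. ERG had 30 with a best of 8.03, so the strongest element ranged from 4.16 at TAL1 to 23.4 at IKZF2. BCL11A, MYC, RUNX3, SATB1, SPI1 and ZEB2 were targets only of super-enhancers away from the gene.

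Of 18 stem and progenitor genes, 5 were targets of an overlapping super-enhancer, with 111 elements and a median fold of 4.04. Of these elements, 7 (6.31%) had a fold of at least 10. CD44 was a target only of a super-enhancer away from the gene. ADGRG1 had 30 elements, 4 of them of fold 10 or more and the best at 15.5, and 28 of the 30 lay downstream of the gene. CD34 had 40. ANGPT1, a ligand of the TIE2 receptor, had 16 with a best of 11.5, SOX4 had 4, all downstream, with a best of 11.2, and BAALC had a best of 6.01 over its pair of regions. ANGPT1 and BAALC are on chromosome 8, where the background described further on was raised.

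Of 33 genes of BCR-ABL, cytokine or survival signalling, 6 were targets of an overlapping super-enhancer. They had 184 elements with a median fold of 4.26, of which 6 (3.26%) reached at least 10. CISH, LYN and PIM1 were targets only of super-enhancers away from the gene. Inside the target lay 86.4% of the 184, against 60.2% of all elements. GAB2 alone supplied 90 of the 184, with 84 inside, from a region that lies 93.7% within its record. BCL2 had 36 elements, 20 inside and 16 downstream, with a best of 12.5 at 212 kb from the start. BCL2L1, encoding BCL-XL, had 22, all inside, with a best of 11.4. PIK3CD, the catalytic p110-delta subunit, had 20, all inside, with a best of 6.90. GRB2, the adaptor that binds phosphorylated BCR-ABL, had 15 with a best of 14.3. STAT3 had 1, with a fold of 5.95, and it lay in the neighbouring STAT5A. GAB2 and BCL2 thus held most elements of this list, and STAT3 the fewest.

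Targets in the other lists are likewise those of overlapping super-enhancers only. Of 23 granulocyte and monocyte genes, 4 were targets (LY86, SPN, VSIG4 and VSIR), with 172 elements and a median fold of 4.29. LY86 reached 16.1 in an element 129 kb from its start, and SPN, the sialophorin CD43, had 48 elements over 152 kb, 3 of them inside its short record. Of 24 actin cytoskeleton and adhesion genes, 7 were targets, with 157 elements and a median of 4.42. At MYH9, 51 of 77 elements lay upstream, the best 70.3 kb from the start with a fold of 13.6. Among chromatin regulators, JARID2, a subunit of Polycomb repressive complex PRC2, had 28 elements, all inside the gene, with a best fold of 7.83. HDAC7, a class IIa histone deacetylase, had 14, of which 10 lay upstream of the gene, with a best of 9.51.

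RHEX was the only target of an overlapping super-enhancer among 22 erythroid and megakaryocyte genes. It had 56 elements, 36 of them upstream. TFRC, of the same list, was a target only of a super-enhancer away from the gene. PAX5, the B-cell factor, was the only target of 20 lymphoid genes and had 3 elements, with a best of 5.19. No neuronal gene of 15 and no skeletal muscle gene of 14 was a target, which lists of this length cannot set apart from the 1.6% of all genes. LIPC was the only target of 15 hepatocyte genes, and 84 elements on chromosome 15 make it the third region by count. As a check of the cell type, both marks lay at an end of 32 of 43 haematopoietic factors (74.4%), 3 of 15 neuronal genes, 3 of 15 hepatocyte genes and 2 of 14 muscle genes (14.3%), against 60.4% of all protein-coding genes. The other blood lists were lower than the factors, at 66.7% for stem and progenitor genes, 60.0% for lymphoid, 47.8% for granulocyte and monocyte and 31.8% for erythroid and megakaryocyte genes. BCR-ABL and cytokine signalling genes had 97.0% and actin genes 87.5%. The marks thus lay more often at the blood lists than at the lists of the 3 other tissues, but 2 of the blood lists were well below the share of all genes. The lowest of them, 7 of 22 erythroid and megakaryocyte genes, differed from 3 of 15 by few genes. No interval was computed for these shares.

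Most targets of these elements had a promoter with H3K4me3. Of 255 targets with a listed start, among them NCK2 without an element, 241 (94.5%) had H3K4me3 at a start. The authors' label for the targets describes them as expressed, so this share is in part set by how targets were chosen. As a background by another measure, both marks lay at an end of 60.4% of all protein-coding genes. In 7 no listed start had it and a start lay in an element. Besides NT5DC4, SLC23A1, FGF6 and VSIG4 these were GDF15, a stress-induced growth factor, KLHL33 and MAGIX. The elements over their starts were weaker, with folds of 3.62 at GDF15, 2.71 at KLHL33 and 4.21 at MAGIX. Of the 7 records, 5 held an H3K4me3 peak away from the listed starts. The best had an H3K4me3 fold of 50.8 in MAGIX and 34.0 in FGF6, while the records of SLC23A1 and VSIG4 held none. The start of ABCA9 lay in an H3K27ac peak that is not one of its elements. Neither mark lay at a listed start of AMZ1, IFITM3, ITLN1, LIPC, NCK2 and SEMA4D. All of these records but that of ITLN1 held H3K4me3 elsewhere, with 15 peaks in LIPC and 12 in SEMA4D. The best of those in SEMA4D had an H3K4me3 fold of 91.4.

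Within these super-enhancers, 2 microRNA hairpins lay in an element, MIR589 at FBXL18 (fold 5.94) and MIR6787 at SLC16A3 (fold 6.32). MIR223, the myeloid microRNA, lies in the VSIG4 region and MIR21 in the VMP1 region. Both hairpins lay in H3K27ac peaks with H3K4me3, at 4452 bp and 2921 bp from the nearest element.

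Elements on chromosomes 8 and 15 had a higher median expected background in this library, though on chromosome 15 it was not raised throughout. There the median expected value was, for example, 5.91 in the PLEKHO2 region, 4.01 in that of LIPC and 3.20 in that of ZNF710. The 283 elements on chromosome 8 had a median of 26 fragments over an expected 6.36 and a median fold of 3.54. The 338 on chromosome 15 had 23 over 4.53 and 4.08, and the 5546 on the other chromosomes had 19 over 3.63 and 4.35. Elements on chromosome 8 thus had more fragments and a lower fold, and 1.06% of them reached 10, against 4.24% on the other chromosomes. The part of the background in this difference was not tested.

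Values near the limits of the rule are given as a description. The smallest overlaps of a super-enhancer with its target were 409 bp at H4C8, 599 bp at RAB8A and 604 bp at ITLN1. The nearest that failed were 39 bp from PWWP2B, 78 bp from C15orf39 and 330 bp from ABHD16B. The element nearest to H3K4me3 lay 2 bp from it, at ANKS1A with a fold of 8.67, and 33 elements lay within 100 bp of it. On the other side of the rule, the H3K27ac peak with the least overlap shared 16 bp with H3K4me3, at NRROS with a fold of 4.60, and 20 peaks overlapped by under 100 bp. The weakest element by q, at TEC, a non-receptor tyrosine kinase, had a −log10 q of 1.32 and a fold of 2.06.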

How the data were processed

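H3K27ac, H3K4me3 and input were each sequenced from 1 library of KBM7 cells. The build was hg38, and the tools named were Bowtie2 2.3.4 and bedtools 2.20.1, per the submitters' processing notes. Names of the peak caller and the super-enhancer tool were not given in the sources used here. In the deposited peak lists the authors give a score, a signal column that is a fold (ratio) over background, −log10 of p- and q-values and a summit offset. The deposited super-enhancer table gives total signal, a rank and a target. For its scaling and the library depths, no value was given in the sources used here. Of 96697 H3K27ac rows, 38 on other sequences were left out.

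A whole-number pileup and an expected background were recovered for 100% of peaks from fold and p (tolerance 0.01 on the −log10 scale). Elements were taken with at least 1 bp in a super-enhancer and no overlap with H3K4me3. Targets were matched to RefSeq (GRCh38.p14) by symbol (500), accession (11) or synonym (2). Python 3.11.15, numpy 2.4.6, pandas 2.3.3, scipy 1.17.1 and matplotlib 3.10.9 were used, and the scripts were checked on simulated data. The members and gene lists were chosen with earlier results of these data known. Genes were named as targets of the 10 regions with most elements, the 10 elements of highest fold, the 10 regions with the largest share of length in elements and 3 gene lists (haematopoietic factors, stem and progenitor genes, BCR-ABL signalling). Other lists were given as counts with some of their targets, and the count of 1 list is not reported here. The other genes named, and the start sequences, were chosen after their values were seen. Motifs at element summits had been planned and were not run, since no genome was used here. Alternatives varied the overlaps, the H3K4me3 rule and the q threshold.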

Additional observations from a re-analysis of the deposited data

Results flagged for a closer look

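Super-enhancers without a target form no group of the comparisons above, although their peaks are part of the shares over all H3K27ac peaks, and signal was present there too. The 19 such regions held 257 H3K27ac peaks without H3K4me3, out of 337 (76.3%, 71.4 to 80.5). Their median fold was 4.30 from 20 fragments, the strongest had 25.9, and 3.11% (1.59 to 6.02) reached a fold of 10.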

How the results depend on the processing

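Of 57 recomputed values, 42 moved by less than their 95% interval (or, for the number of elements, 1.5 times) and 15 moved more. Of the 42, 21 could not move: every element lies wholly inside its super-enhancer, so asking for 50% of the peak or its summit inside changed nothing, and counting rows with identical intervals singly left every value as it was. With at least 50% of the super-enhancer inside the gene, 3530 elements remained, 87.8% inside the target and 2.58% at a gene end. With no H3K4me3 within 1 kb, 5331 elements remained, 4.18% lay at a gene end and the median was 12 elements per super-enhancer. Counting only the top 50% of H3K4me3 peaks by fold gave 6995 elements. Their median fold was 4.52, 11.3% reached 10, the median was 17 elements per super-enhancer and summits lay 1335 bp apart. At a −log10 q of at least 5, 4173 of 6167 elements remained, a large fall that still counts as under 1.5 times. The other values there, in the same order, were 4.97, 5.99%, 10 and 1999 bp. Without chromosomes 8 and 15 the median fold was 4.35, and with a gene end window of 500 bp 3.10% lay at an end. The share of strong elements therefore depends most on which H3K4me3 peaks count. The cause of these shifts was not tested.

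AGATAA at element summits, and its other window, were not run, since no genome was used here. No paired analysis was possible because each mark has 1 library and no replicate numbers. The median element rests on 20 fragments, and the effect of depth was not tested.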
